A study of Mus musculus with 8 samples.

Results

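Integrins and laminins form one adhesion system of the lung. Laminins are basement membrane proteins built from 1 alpha, 1 beta and 1 gamma chain, and they line the epithelium, the capillaries and the smooth muscle of the lung. Integrins are cell surface receptors of 1 alpha and 1 beta chain that bind laminins, collagens, fibronectin or counter-receptors on other cells and link them to the actin cytoskeleton. Alveolar septation, the subdivision of the air sacs after birth named in the title of the series, brings epithelium, capillary and myofibroblast together across such membranes. The subunits were taken by gene symbol alone, as all probe sets of the array with a single symbol naming an integrin alpha or beta chain or a laminin alpha, beta or gamma chain. A probe set is the group of short probes that reports a transcript with 1 value. The rule found 45 probe sets for 28 genes among 12422 probe sets that were not controls (28 of 8251 genes named by a probe set of 1 symbol), with 31 probe sets for 19 integrin genes and 14 probe sets for 9 laminin genes.

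The series holds 8 Affymetrix arrays of mouse lung RNA, 2 in each of 4 groups. Mice aged 3 days were given oil or retinoic acid, a vitamin A derivative that acts through nuclear receptors, and on day 4 saline or dexamethasone, a synthetic glucocorticoid. The titles name the arms Dil, Dex (dexamethasone), RA (retinoic acid) and RA-Dex (both). No label defines Dil. It was read as oil followed by saline, the combination that the other names leave over. No strain, dose or collection time is stated in the sources used here. The arrays of a group are lettered a and b, with no word on whether they stand for different mice. The p-values therefore speak only to the spread among these 8 arrays, which may be technical.

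The tissue label was checked against defining lung markers. Signals of the surfactant gene Sftpc were between 61592 and 84336, those of the club cell secretoglobin Scgb1a1 between 40353 and 52034 and those of the endothelial cadherin Cdh5 between 7985 and 11927 over the 8 arrays. The surfactant gene Sftpb lay between 20227 and 28498. The probe sets of 2 other markers were dim, with Sftpd, a surfactant gene, between 91.2 and 237 and below the filter, and Pecam1, an endothelial adhesion molecule, between 175 and 591. Median signals per array were between 316 and 342. Across probe sets, which are not independent replicates, the 2 arrays of a group had correlations of 0.945 to 0.965, and pairs from different groups 0.913 to 0.964.

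Of the 45 probe sets, 26 (for 18 genes) had a mean log2 signal over the 8 arrays above that of a signal of 200.8, the filter for testing, and 19 did not. The filter took no account of group. The tested set held 15 probe sets for 10 integrin genes and 11 for 8 laminin genes. Comparisons below use limma's moderated test with Benjamini-Hochberg adjustment over all 7309 tested probe sets, and a gene is said to have risen or fallen only at an adjusted p under 0.05. Fold changes are on the log2 scale with their standard error (SE) from the fit. Signals of different probe sets are not comparable with each other, so each subunit probe set is set only against itself. Summed signals of cell type marker lists add the brightest probe set of each measured gene, tested or not. The brightest genes weigh most in such sums, which are compared only between groups and may not show the list as a whole.

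Averaged over the day 3 treatment, dexamethasone went with a rise of the laminin alpha chain Lama4 and a fall of the leukocyte integrin beta chain Itgb2, and with no other call in the family. That is 2 of 26 probe sets, or 7.69%, beside 7.83% of all probe sets tested, so the share was near the background. In each direction it was 1 of 26, beside 4.26% that rose and 3.57% that fell among all. The median log2 fold change of the 26 was -0.03, and that of all 7309 was -0.03. The log2 fold change was under 0.5 in size for 23 of 26 subunit probe sets and for 6298 of all 7309 (86.2%). An unadjusted p under 0.05 was reached by 6 of 26, beside 21.3% of all.

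**Figure D1:**
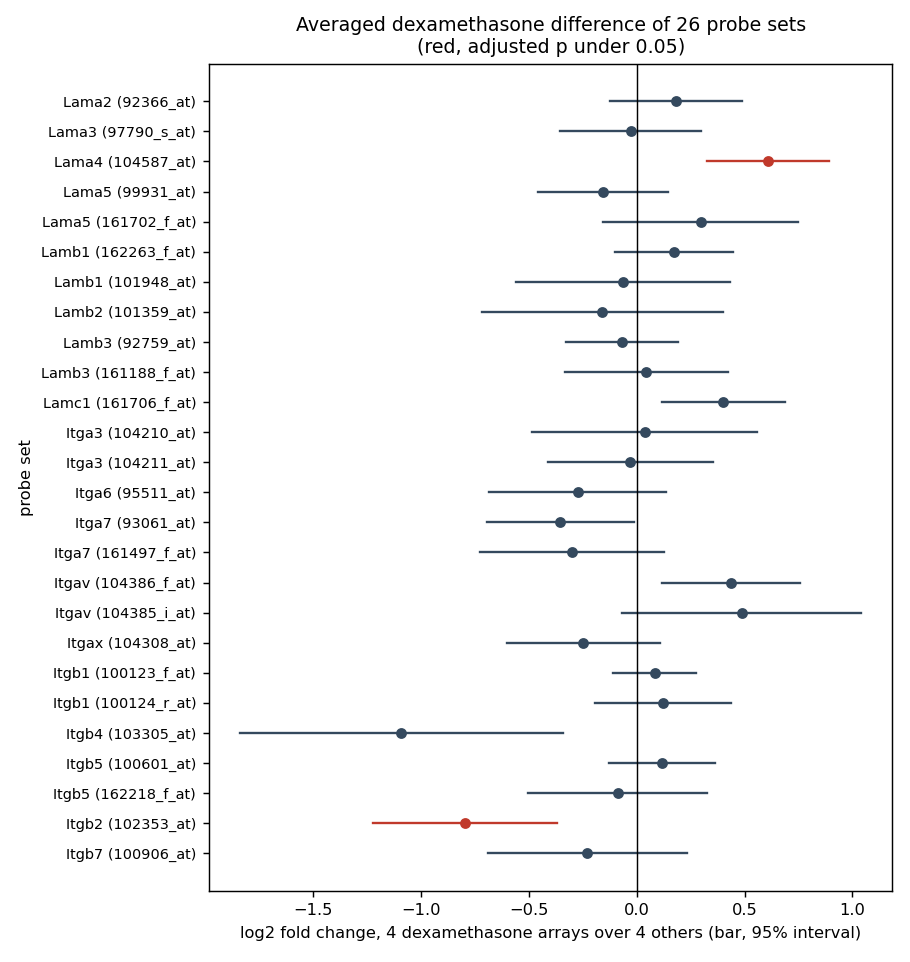
Log2 fold change of each of the 26 tested integrin and laminin probe sets between the 4 arrays given dexamethasone (Dex, RA-Dex) and the 4 others (Dil, RA). Points are estimates and bars 95% intervals from limma. Lama4 at 0.61 and Itgb2 at -0.79, in red, had an adjusted p under 0.05, and Itgb4 lay farthest from 0 at -1.09 with a wide interval.

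Among the laminin alpha chains, Lama4, the chain of the laminins of capillary and mesenchymal basement membranes, had signals of 3312 and 3457 in Dil, 5188 and 4528 in Dex, 2379 and 3461 in RA, and 4616 and 4703 in RA-Dex. All 4 dexamethasone arrays were above all 4 others, a pattern that 6.8% of all tested probe sets shared. The rise of Lama4 was 1.53-fold, or 0.61 ± 0.129 (SE) on the log2 scale with 4 arrays a side (limma adjusted p = 0.0149). The difference was 0.52 ± 0.182 in Dex against Dil (adjusted p = 0.19) and 0.70 ± 0.182 in RA-Dex against RA (adjusted p = 0.0675), and neither passed with 2 arrays a side. The second of these was 0.43 without RA a (adjusted p = 0.268) and 0.97 without RA b, where it passed (adjusted p = 0.0138). The averaged call was lost when all probe sets were tested (adjusted p = 0.117) or the intensity trend was dropped (0.0639). It was also lost without the array Dex a (0.0732), without RA-Dex a (0.0535) and without RA-Dex b (0.0646). A second Lama4 probe set was below the filter, with signals between 32.1 and 185, and says nothing on the change.

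Lama4 is known from endothelium and smooth muscle. With dexamethasone averaged over the day 3 treatment, 4.26% of all tested probe sets rose and 3.57% fell. Of 10 tested endothelial markers 1 fell and 0 rose in the same comparison (median log2 fold change -0.13). Of 8 tested smooth muscle markers 2 fell and 0 rose (median -0.12). Within the arms these medians had opposite signs. The endothelial median was -0.20 in Dex against Dil and 0.13 in RA-Dex against RA, and the smooth muscle median -0.26 and 0.15. The lower and the higher summed signal of the endothelial list were 53087 and 56778 in Dil, 44695 and 49624 in Dex, 45525 and 53962 in RA, and 48978 and 59248 in RA-Dex. Those of the smooth muscle list were 40419 and 41590 in Dil, 31396 and 31740 in Dex, 34113 and 35863 in RA, and 33717 and 35800 in RA-Dex. The smooth muscle sums were highest in Dil, and the endothelial sums of Dil and RA-Dex overlapped. Of 5 tested alveolar type I markers 2 rose and 0 fell (median 0.32), with lower and higher sums of 49123 and 50205 in Dil, 60297 and 61504 in Dex, 51692 and 61187 in RA, and 66011 and 67979 in RA-Dex. Of 5 tested markers of the lung epithelium list 0 rose and 0 fell (median 0.03, 1 at an unadjusted p under 0.05). Their part in the rise of Lama4 was not tested.

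Lama2, the alpha chain of muscle and mesenchymal laminin, had signals of 896 and 893 in Dil, 792 and 780 in Dex, 790 and 629 in RA, and 1112 and 961 in RA-Dex. Dex lay below Dil, and RA-Dex lay above RA and above every other array. The difference was -0.19 ± 0.196 for Dex against Dil and 0.55 ± 0.196 for RA-Dex against RA, and the interaction, the second minus the first, was 0.74 ± 0.277 (unadjusted p = 0.0224, limma adjusted p = 0.857). Opposite, non-overlapping dexamethasone differences in the 2 arms were found in 2 of 26 subunit probe sets and in 4.35% of all tested.

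The same form was seen for the brighter probe set of Itgb1, the beta chain shared by most laminin, collagen and fibronectin receptors. Its signals were 15953 and 17933 in Dil, 14539 and 15909 in Dex, 13885 and 14602 in RA, and 16974 and 18655 in RA-Dex. Dexamethasone arrays were lower than their controls without retinoic acid (-0.15 ± 0.123) and higher after it (0.32 ± 0.123), and the interaction of 0.47 ± 0.174 did not pass (unadjusted p = 0.0202, adjusted p = 0.832). The other Itgb1 probe set, from the same transcript record, did not share this form. Its signals were 4475 and 4559 in Dil, 4644 and 4605 in Dex, 3411 and 5425 in RA, and 4568 and 5426 in RA-Dex. Both Dex arrays were above both Dil arrays (0.03 ± 0.201), RA-Dex against RA was 0.21 ± 0.201 with overlap, and the interaction was 0.18.

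The Lama2 probe set and the brighter Itgb1 probe set were the 2 of 26 whose arrays ran opposite ways, without overlap, in both arms. So did 4.35% of all tested, and neither interaction passed (limma adjusted p = 0.857 and 0.832). The 250 bases before the start sites of these 2 genes are shown, from RefSeq (build GRCm38.p6). The glucocorticoid receptor is known to bind as a dimer to paired copies of AGAACA. Capitals mark each match to AGAACA or to AGGTCA, the element bound by retinoic acid receptors, on either strand.
Itgb1, chr8:128685404-128685653, plus strand: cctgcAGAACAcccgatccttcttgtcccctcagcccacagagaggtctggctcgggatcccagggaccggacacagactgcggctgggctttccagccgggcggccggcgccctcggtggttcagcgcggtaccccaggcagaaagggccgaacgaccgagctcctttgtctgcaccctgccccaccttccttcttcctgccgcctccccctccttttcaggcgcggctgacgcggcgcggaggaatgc
Lama2, chr10:27616943-27617192, minus strand: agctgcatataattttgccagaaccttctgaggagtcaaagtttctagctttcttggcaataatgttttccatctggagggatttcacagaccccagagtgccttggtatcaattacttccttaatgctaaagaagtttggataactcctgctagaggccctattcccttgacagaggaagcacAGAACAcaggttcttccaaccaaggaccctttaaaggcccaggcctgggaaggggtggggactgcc
Each window held 1 AGAACA and no AGGTCA. Of the 28 genes, 17 had a promoter entry, 19 windows in all, and Lama4 and Itgb2 had none. AGAACA was in 5 of these 19 windows, those of Itga2, Itgax, Itgb1, Itgb7 and Lama2, and in 16.1% of all 32851 promoter windows of the same length. AGGTCA was in 1 of 19, that of Itgb2l, and in 14.0% of all. The full palindromic glucocorticoid response element, 2 inverted copies of AGAACA spaced by 3 bases and counted among the AGAACA matches as well, was in 0 of 19 and in 3 of all 32851. A match describes letters only and says nothing on whether a receptor binds there.

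The epithelial alpha chains gave no call. Lama3, of the laminin that anchors epithelium, had signals of 1296 and 934 in Dil, 1025 and 1213 in Dex, 986 and 1150 in RA, and 1043 and 982 in RA-Dex, with an averaged dexamethasone difference of -0.03 (95% interval -0.35 to 0.30). Lama5, the main alpha chain of mature lung epithelium and vessels, had signals of 2604 and 2883 in Dil, 2354 and 2874 in Dex, 2357 and 3193 in RA, and 2576 and 2104 in RA-Dex (difference -0.16 ± 0.137). Its dimmer probe set had the opposite sign (0.30 ± 0.204), with signals between 296 and 571 and both RA arrays below all others. In the brighter probe set both RA-Dex arrays were below both Dil arrays (-0.23 ± 0.194, adjusted p = 0.617). Lama1, the embryonic alpha chain, was below the filter at 299.3 and 313 in Dil, 261 and 178 in Dex, 143 and 201 in RA, and 27.98 and 197 in RA-Dex, and was not tested.

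Of the beta and gamma chains, Lamc1, the gamma chain of most laminins, had signals of 3045 and 2260 in Dil, 3311 and 3800 in Dex, 2314 and 2630 in RA, and 3420 and 2963 in RA-Dex. Its averaged dexamethasone difference of 0.40 ± 0.129 did not pass (adjusted p = 0.089), and was 0.51 without Dil a, where it passed (adjusted p = 0.0432), and 0.29 without Dil b (adjusted p = 0.261). The lowest RA-Dex array was below the highest Dil array, so the sides overlapped. Its other probe set was below the filter, between 38.6 and 126. Lamb1, the beta chain paired with Lama4 and Lamc1 in vascular laminin, had signals of 1081 and 1164 in Dil, 1115 and 1238 in Dex, 1039 and 1115 in RA, and 1223 and 1402 in RA-Dex in its brighter probe set (difference 0.18 ± 0.124). Its dimmer probe set had a difference of -0.06.

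Lamb2, the beta chain of muscle and mature vessel laminins, ranged from 437 to 1172 over the 8 arrays, with both extremes in dexamethasone arrays (difference -0.16 ± 0.253). Lamb3, the beta chain of anchoring epithelial laminin, had signals of 2111 and 2413 in Dil, 2244 and 2099 in Dex, 2149 and 2384 in RA, and 2354 and 1944 in RA-Dex, with a difference of -0.07 (95% interval -0.33 to 0.19). The second Lamb3 probe set ranged from 692 to 1092 with a difference of 0.04.

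**Figure D2:**
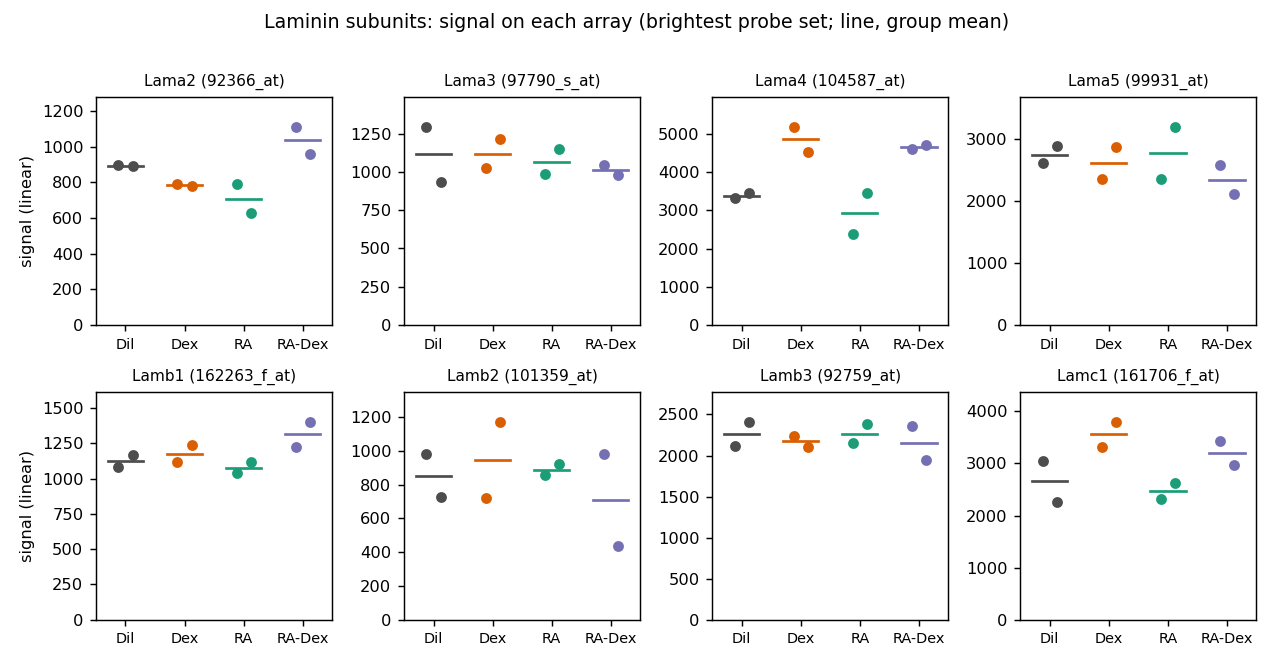
Linear signal of the brightest tested probe set of each of the 8 tested laminin genes, by group (Dil, Dex, RA, RA-Dex). Points are the 2 arrays of a group and lines their means. Lama4 is higher in Dex and RA-Dex than in Dil and RA on every array, and Lama2 is highest in RA-Dex.

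Among integrins, the single call was that of a leukocyte beta chain. Itgb2, which pairs with the leukocyte alpha chains in the receptors that hold white cells to endothelium, had signals of 363 and 482 in Dil, 272 and 336 in Dex, 687 and 623 in RA, and 279 and 324 in RA-Dex. All 4 dexamethasone arrays were below all 4 others, as for 7.78% of all tested probe sets, and both RA arrays were above both Dil arrays. Itgb2 fell to 0.577 of its level with dexamethasone (-0.79 ± 0.193 SE on the log2 scale, 4 arrays a side, limma adjusted p = 0.0294). The difference was -0.47 ± 0.272 in Dex against Dil (adjusted p = 0.489) and -1.12 ± 0.272 in RA-Dex against RA (adjusted p = 0.051). RA against Dil gave 0.65 ± 0.272 (unadjusted p = 0.0377, adjusted p = 0.591).

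The averaged call of Itgb2 was lost when all probe sets were tested (adjusted p = 0.0925) and in 7 of the 8 fits that each left out 1 array, at adjusted p between 0.0519 and 0.104. Those 7 were the fits without an array of Dex, RA or RA-Dex, whichever of a and b it was, and the fit without Dil b. The call was kept without Dil a (adjusted p = 0.03), and the log2 fold change was between -0.90 and -0.69 in all 8.

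Leukocyte transcripts were also lower with dexamethasone. Among all tested probe sets 4.26% rose and 3.57% fell in the averaged comparison. Of 9 tested leukocyte markers other than integrins 6 fell and 0 rose with dexamethasone (median -0.78), and 3 fell without Dex a, as without RA-Dex b. Cd52, a surface glycoprotein of lymphocytes and macrophages, fell (-1.32 ± 0.137), as did Coro1a, an actin regulator of leukocytes (-0.90 ± 0.137), and Tyrobp, a signalling adaptor of myeloid cells (-0.82 ± 0.123). The lower and the higher summed signal of the 11 measured markers were 14823 and 15796 in Dil, 9215 and 9495 in Dex, 16743 and 17600 in RA, and 9923 and 10447 in RA-Dex, and 0 of them were at the floor on all arrays. The median of the tested markers was -0.73 in Dex against Dil, -0.81 in RA-Dex against RA and 0.19 in RA against Dil. Itgb2 had -0.47, -1.12 and 0.65 in the same order. The part of these transcripts in the fall of Itgb2 was not tested. In whole lung, fewer cells of a type and less RNA per cell cannot be told apart.

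**Figure D3:**
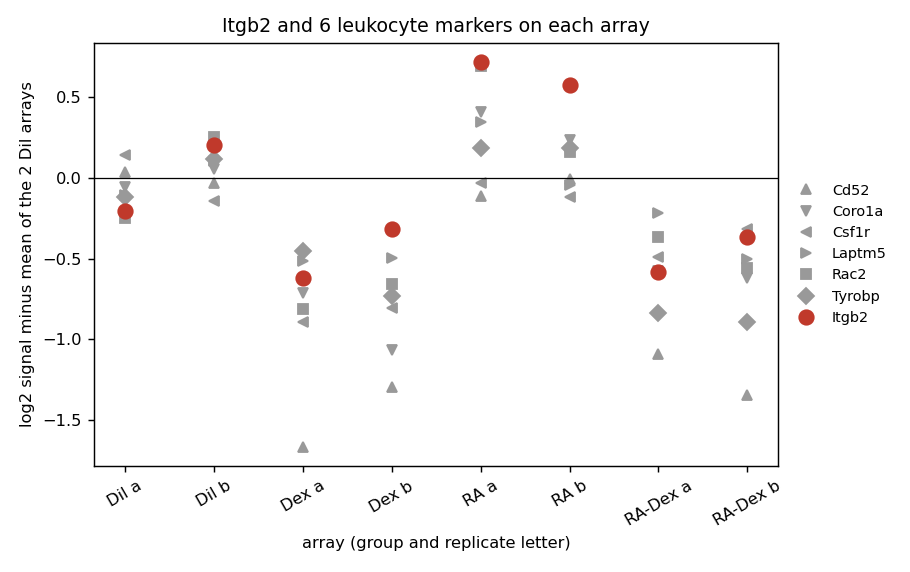
Log2 signal of Itgb2 (red) and of the 6 leukocyte markers that fell with dexamethasone (grey) on each of the 8 arrays, each minus its own mean over the 2 Dil arrays. Each point is 1 array. The genes were picked for having fallen, so that all 4 dexamethasone arrays lie below 0 for every gene shown follows largely from that choice. Tested leukocyte markers without a call are not shown. Itgb2 is above 0 on both RA arrays.

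The other leukocyte chains did not follow with a call. Itgax, the alpha chain known from dendritic cells and alveolar macrophages, had signals of 622 and 583 in Dil, 475 and 497 in Dex, 663 and 509 in RA, and 477 and 547 in RA-Dex (averaged difference -0.25 ± 0.161, adjusted p = 0.431). Itgb7, a beta chain of lymphocytes, had 574 and 811 in Dil, 366 and 632 in Dex, 564 and 742 in RA, and 680 and 659 in RA-Dex (-0.23 ± 0.208), and its second probe set was below the filter, between 19.9 and 86.1. Itgal, Itgam and Itgae, alpha chains of lymphocytes, myeloid cells and tissue-resident T cells, were below the filter, with highest signals of 209, 61.8 and 118. The 3 probe sets of Itga4, an alpha chain of leukocytes that binds Vcam1, were also below it, between 29.2 and 201. Itgb2l, a relative of Itgb2, was below it too, between 147 and 236.

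Of the laminin-binding alpha chains, Itga3, a receptor chain of lung epithelium, had signals of 1123 and 1248 in Dil, 779 and 1584 in Dex, 962 and 1715 in RA, and 1574 and 1322 in RA-Dex in its brighter probe set. The lower Dex array was the lowest of all 8 and the other Dex array was above both Dil arrays, and the averaged difference was 0.04 ± 0.236 (-0.03 ± 0.173 in the other probe set). Itga6, which pairs with Itgb1 or Itgb4, had 623 and 525 in Dil, 420 and 458 in Dex, 566 and 418 in RA, and 375 and 503 in RA-Dex (-0.27 ± 0.185).

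Itga7, the laminin receptor chain of skeletal, heart and smooth muscle, was lowest in RA-Dex in its brighter probe set. Signals there were 1031 and 878 in Dil, 826 and 1078 in Dex, 1024 and 939 in RA, and 690 and 533 in RA-Dex. RA-Dex was below RA (-0.69 ± 0.218, unadjusted p = 0.00912, adjusted p = 0.132), below Dex (-0.64 ± 0.218, adjusted p = 0.992) and below Dil (-0.65 ± 0.218, adjusted p = 0.149), and none of these passed. The next probe set had -0.45 ± 0.273 for RA-Dex against RA 0.07 for RA-Dex against Dex and -0.08 for RA-Dex against Dil, and the remaining one was below the filter with all 8 arrays at the floor. The lower and the higher summed skeletal muscle signal were 9724 and 11114 in Dil, 5171 and 6629 in Dex, 6621 and 6839 in RA, and 5682 and 5937 in RA-Dex, with Myh2 and Actn2 at the floor on all arrays. Of 9 tested skeletal muscle markers 3 fell with dexamethasone averaged and 0 rose, beside 3.57% that fell and 4.26% that rose among all. The skeletal muscle median was -0.61 in Dex against Dil, -0.35 in RA-Dex against RA and -0.60 in RA against Dil. The skeletal muscle sums were highest in Dil, and so were not low in RA-Dex alone. Cardiac muscle sums were 25319 and 26461 in Dil, 16985 and 17548 in Dex, 20596 and 21294 in RA, and 21114 and 21633 in RA-Dex. They were lowest in Dex. With dexamethasone averaged, limma called 0 of 8 tested cardiac markers (2 at an unadjusted p under 0.05). In Dex against Dil 1 of 8 fell and 0 rose (median -0.50, 4 at an unadjusted p under 0.05). Of all tested probe sets 3.23% were called there. The part of these transcripts in the values of Itga7 was not tested.

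Itgav, the alpha chain of the receptors that bind RGD sequences in vitronectin, fibronectin and latent TGF-beta, was lowest in the controls. Its brighter probe set had signals of 2171 and 1860 in Dil, 3278 and 3034 in Dex, 3014 and 2707 in RA, and 2686 and 4154 in RA-Dex. Both Dil arrays were below all 6 others. The differences from Dil were 0.65 ± 0.205 for Dex (adjusted p = 0.137), 0.51 ± 0.205 for RA (adjusted p = 0.566) and 0.73 ± 0.205 for RA-Dex (adjusted p = 0.0809), and these 3 comparisons share the Dil arrays. None passed, although RA-Dex against Dil did so without RA-Dex a (1.05, adjusted p = 0.0331), as did the averaged dexamethasone difference (0.44 ± 0.145, adjusted p = 0.0995; 0.60 and 0.0302 without that array). Without RA-Dex b these values were 0.42 (adjusted p = 0.52) and 0.28 (adjusted p = 0.329). A second probe set from the same transcript record had signals of 214 and 237 in Dil, 273 and 449 in Dex, 387 and 290 in RA, and 521 and 344 in RA-Dex, again lowest in Dil. The remaining one, from another record, was below the filter between 19.1 and 157 and did not show that order.

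Other alpha chains lay below the filter and were not tested. Itga5, the fibronectin receptor chain, had signals of 28.5 and 114 in Dil, 173 and 153 in Dex, 217 and 29.9 in RA, and 386 and 169 in RA-Dex. Itga2, a collagen receptor chain, had 115 and 52.9 in Dil, 105 and 119 in Dex, 244 and 226 in RA, and 107 and 186 in RA-Dex, so that both RA arrays were above the rest. Itga8, the mesenchymal chain that binds nephronectin, had 2 probe sets between 20.6 and 98.6.

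Itgb4, the beta chain that anchors epithelium to laminin through hemidesmosomes, had the lowest log2 fold change with dexamethasone of the 26. Its signals were 430 and 269 in Dil, 226 and 205 in Dex, 225 and 465 in RA, and 149.7 and 73.9 in RA-Dex. The lower RA-Dex array was under the floor of 85.3, so the size depends on the floor, and RA a lay at the level of Dex. The averaged difference of -1.09 ± 0.339 did not pass (adjusted p = 0.0803), and was -1.35 without RA a, where it passed (adjusted p = 0.0449). It was -0.83 without RA b (adjusted p = 0.236) and -0.89 without RA-Dex b (adjusted p = 0.248). RA-Dex against Dil gave -1.59 ± 0.479 (adjusted p = 0.109). Squamous epithelium, which carries hemidesmosomes, had lower and higher summed marker signals of 34621 and 39213 in Dil, 32196 and 35545 in Dex, 24984 and 34703 in RA, and 27012 and 33138 in RA-Dex. Of its 17 measured markers Krt14, Krt15 and Ivl were at the floor on all arrays. With dexamethasone averaged, 1 of 7 tested rose and 0 fell, beside 4.26% and 3.57% of all. In RA-Dex against Dil 1 of 7 fell and 0 rose in limma (median -0.16, 3 at an unadjusted p under 0.05). Of all tested probe sets 4.01% were called there, and 16.2% had such a p. Their part in the values of Itgb4 was not tested.

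Of the remaining beta chains, Itgb5, which pairs with Itgav, had signals of 1888 and 2110 in Dil, 1928 and 2103 in Dex, 2113 and 2094 in RA, and 2605 and 2314 in RA-Dex. The 2 RA-Dex arrays were above all 6 others, with 0.30 ± 0.157 against Dil (adjusted p = 0.388). Its other probe set had the opposite sign there (-0.18) and ranged from 464 to 746. Itgb3, the beta chain of platelets that also pairs with Itgav, was at or under the floor on 7 of 8 arrays. Across the 8 genes with 2 tested probe sets, the averaged dexamethasone difference had the same sign in both probe sets of only 3, Itga7, Itgav and Itgb1.

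**Figure D4:**
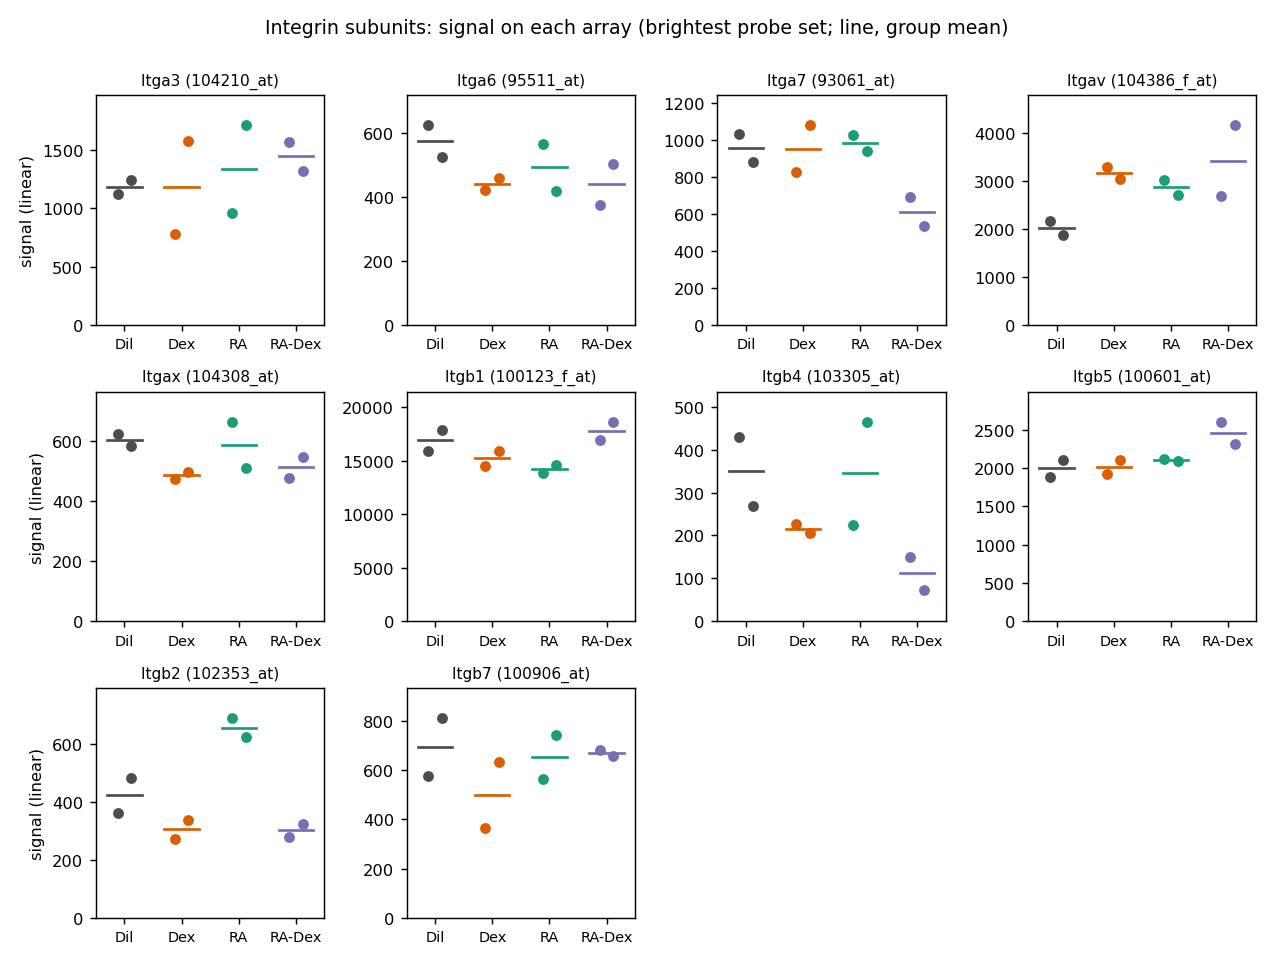
Linear signal of the brightest tested probe set of each of the 10 tested integrin genes, by group (Dil, Dex, RA, RA-Dex). Points are the 2 arrays of a group and lines their means. Itgb2 is lower in Dex and RA-Dex than in Dil and RA on every array, Itgav is lowest in Dil, and Itga7 and Itgb4 have their lowest mean in RA-Dex.

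Each arm taken alone, 2 arrays against 2, gave no call in the family. In Dex against Dil limma called 0 of 26 subunit probe sets, beside 3.23% of all. Both Dex arrays were above both Dil arrays for 5 of 26 (21.1% of all) and below them for 6 (24.6% of all). The largest rise was that of Itgav at 0.65 and the lowest value that of Itgb4 at -0.66, and 3 of 26 had an unadjusted p under 0.05 (14.9% of all). In RA-Dex against RA, 0 of 26 were called, beside 3.5% of all, and 6 had an unadjusted p under 0.05 (15.8% of all). The RA-Dex arrays were both above for 8 (18.5% of all) and both below for 4 (26.3% of all). Values there ran from -1.52 for Itgb4 to 0.70 for Lama4. Dexamethasone differences in the 2 arms lay on the same side of 0 for Lama4, Lamc1, Itgav, Itgb2 and Itgb4, among others, and on opposite sides for Lama2, Lama3, Lamb2, the dimmer Lamb1 probe set, both Itga3 probe sets, the brighter Itgb1 probe set and Itgb7. Lama2 and the brighter Itgb1 probe set alone among the 26 had no overlap in either arm with opposite directions. The interaction called 0 of 26 (0.0137% of all), with 2 at an unadjusted p under 0.05 (5.6% of all).

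**Figure D5:**
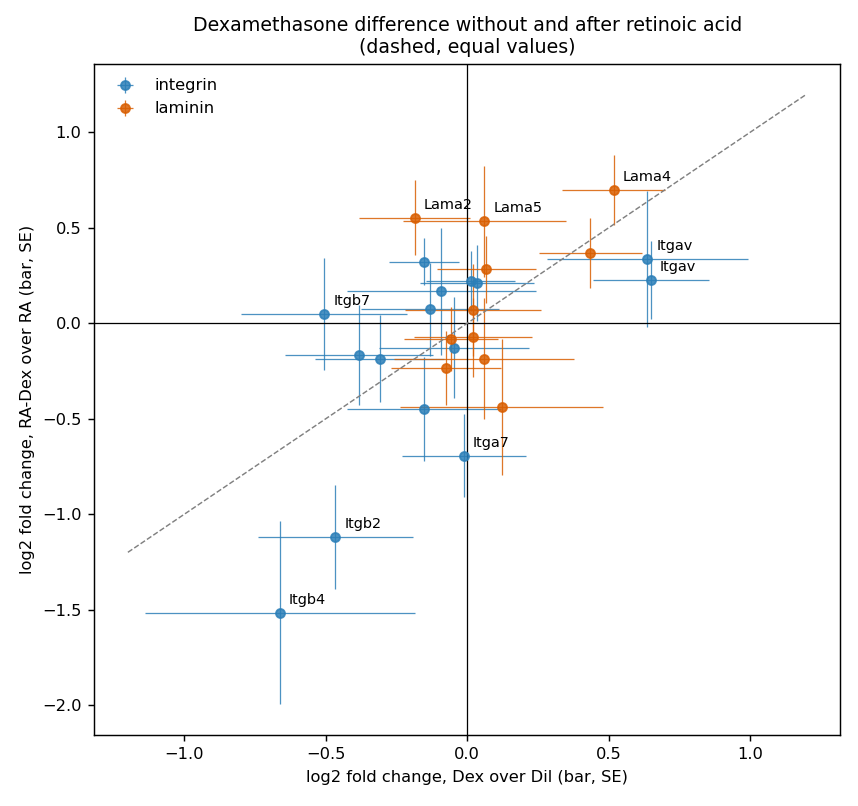
Log2 fold change of each tested integrin (blue) and laminin (orange) probe set in Dex against Dil on the horizontal axis and in RA-Dex against RA on the vertical axis, with bars of 1 SE. Each point is a probe set, and the dashed line marks equal values. Lama4 lies high in both, Itgb2 and Itgb4 low in both, and Lama2 lies at -0.19 and 0.55.

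Retinoic acid went with no call among the subunits. Averaged over the day 4 treatment, 0 of 26 passed in limma, beside 0.15% of all, and 0 of 26 had an unadjusted p under 0.05 (6.29% of all). The 4 retinoic acid arrays were all above the others for 0 of 26 (0.835% of all) and all below for 0 (1.48% of all). The values ran from -0.50 for Itgb4 to 0.42 for the dimmer Itgav probe set, with a median of 0.00 for both the 26 and all probe sets. RA against Dil called 0 of 26 (0.0274% of all), and 2 had an unadjusted p under 0.05, Itgav and Itgb2 (7.99% of all). Both RA arrays were above both Dil arrays for 3 of 26 (17.7% of all) and below for 3 (15.9% of all). RA-Dex against Dex called 0 (0.0958% of all), and 1 had an unadjusted p under 0.05, Itga7 (4.13% of all). The RA-Dex arrays were both above for 4 (16.3% of all) and both below for 2 (18.5% of all). RA-Dex against Dil, which sets both treatments against the controls, called 0 (4.01% of all), and 5 had an unadjusted p under 0.05 (16.2% of all). Both RA-Dex arrays were above both Dil arrays for 8 (19.6% of all) and below for 6 (27.1% of all).

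The ligands and partners of these receptors were counted from lists that were chosen with earlier results of these data known. Of 17 tested integrin ligands outside the basement membrane 2 rose and 1 fell with dexamethasone averaged, with a median of 0.03. Among all tested probe sets 4.26% rose and 3.57% fell. Ccn2, a matricellular ligand of several integrins, had signals of 2596 and 2054 in Dil, 5076 and 5418 in Dex, 3284 and 2635 in RA, and 5190 and 6050 in RA-Dex, and rose (1.06 ± 0.123, adjusted p = 0.00037). Its relative Ccn1 had signals of 573 and 518 in Dil, 617 and 705 in Dex, 532 and 534 in RA, and 1048 and 1149 in RA-Dex. RA-Dex lay farther above RA than Dex lay above Dil, so the average does not stand for both arms alike. Averaged, Ccn1 rose (0.66 ± 0.14, limma adjusted p = 0.0152). That call was lost without Dex b (0.0718), without Dil b (0.0504) and without RA-Dex b (0.0819). The fall was that of Vcam1, the endothelial ligand of Itga4 integrins, with signals of 1198 and 685 in Dil, 397 and 375 in Dex, 1253 and 1501 in RA, and 238 and 475 in RA-Dex (-1.63 ± 0.243, adjusted p = 0.00198, and 0.0837 with no filter). Without RA a the list had 2 rises and 3 falls.

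With dexamethasone averaged, limma called 7.83% of all tested probe sets, and 21.3% had an unadjusted p under 0.05. Basement membrane partners of laminin gave 0 calls in limma among 12 tested (median 0.16, 4 at an unadjusted p under 0.05). In Dex against Dil their median was 0.07, with 0 at such a p (14.9% of all). In RA-Dex against RA it was 0.23, with 4 (15.8% of all). The closest in the averaged comparison were Smoc2, a calcium-binding matrix protein (0.76 ± 0.233, adjusted p = 0.0775), and Nid1, the nidogen that bridges laminin to collagen IV (0.79 ± 0.278, adjusted p = 0.121). Laminin receptors other than integrins gave 0 calls among 8 (median -0.14, 0 at an unadjusted p under 0.05). Cytoplasmic linkers and signalling proteins gave 0 among 20 (median -0.01, 2 at an unadjusted p under 0.05), the closest being the adaptor Tgfb1i1 (-0.47 ± 0.131, adjusted p = 0.0542). Membrane partners of integrins gave 0 among 10 (median -0.08, 2 at an unadjusted p under 0.05). With retinoic acid averaged, these 5 lists gave 0 calls in limma, beside 0.15% of all tested probe sets. An unadjusted p under 0.05 was reached by 0, 1, 0, 1 and 1 genes, beside 6.29% of all. The order is basement membrane, other ligands, other laminin receptors, linkers and membrane partners.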

How the data were processed

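The authors deposited 1 linear intensity per probe set and array. The arrays came scaled to one level: with 2% trimmed off either tail, the mean intensity was 800.4 on each of the 8. No software for the scaling is named in the sources used here. Array number limits the precision. Of 12488 probe sets 66 controls were left out. Signals under 85.3, the pooled 25th percentile, were set to that floor before log2, and probe sets with a mean above the pooled 40th percentile were tested. All 45 symbols, from the array annotation, were unchanged after an Entrez update. Subunits with no probe set of their own symbol were not analysed here.

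The fit used limma 3.58.1 in R 4.3.3 with 1 mean per group, an intensity trend, 4 residual and 6.69 prior degrees of freedom and 8 contrasts. It was tested on simulated data with planted changes larger in size than those called for Lama4 and Itgb2. That run says nothing on recovery at their sizes. The naming rule took all subunits, in full those called in a contrast and the brightest of each role, and up to 4 genes of a partner list by smallest p. Members and lists were chosen with earlier results of these data known. Alternatives were 2 normalizations, 2 filters, a pseudocount of 50, 2 variance models, a replicate block, a minimum change of 0.5, fits without each array, and fits without both Dil arrays for contrasts that do not use them. Alternatives for listed genes were added after the data were seen. Names and promoters came from RefSeq tables.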

Additional observations from a re-analysis of the deposited data

Results flagged for a closer look

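For Lama2 and the brighter probe set of Itgb1, every Dex array was below every Dil array while every RA-Dex array was above every RA array. The retinoic acid differences were opposite in the same way, with RA below Dil and RA-Dex above Dex. Both forms restate the same interaction on the same arrays, so the second is not separate evidence. The interaction was 0.738 ± 0.277 for Lama2 (limma adjusted p = 0.857) and 0.475 ± 0.174 for Itgb1 (adjusted p = 0.832), so neither difference between arms passed the test. The other Itgb1 probe set had both Dex arrays above both Dil arrays and an interaction of 0.18. In the brighter Itgb1 probe set the nearest Dex and Dil arrays were close, at 15909 and 15953. Opposite, non-overlapping dexamethasone differences were found in 2 of 26 subunit probe sets and in 4.35% of all 7309. For the retinoic acid differences the counts were 2 of 26 and 6.31% of all.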

How the results depend on the processing

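The 2 subunit calls of the averaged dexamethasone comparison became 0 with no filter, 1 (Lama4) with the stricter filter, under which Itgb2 was not tested, and 1 (Itgb2) with no intensity trend, and ranged from 0 to 3 without 1 array. The count was 2 under the other 6 alternatives, the replicate block among them (adjusted p = 0.0267 for Lama4 and 0.0455 for Itgb2), and no call reversed. RA-Dex against RA had 0 calls, and 1 with the stricter filter (Lama4), 1 with a pseudocount of 50 (Itgb2), and 0 to 1 without 1 array. With both Dil arrays left out it had 0. So had the comparison of RA-Dex with Dex. For RA-Dex over Dil the count was 0, and 0 to 1 without 1 array. In Dex against Dil, both retinoic acid comparisons within an arm, the averaged retinoic acid comparison and the interaction, the count was 0 under the alternatives run. The cause of these changes was not tested. The letters a and b were not used as pairs, since deviations of like-lettered arrays correlated at -0.22 to 0.14. An array under the floor of 85.3 limits the sizes given for Itgb4, and the filter at 200.8 left 10 of the 28 genes untested.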
